A study of Homo sapiens with 4 samples.

Results

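The genes described here are 10 enzymes of de novo nucleotide synthesis, the pathway by which a cell builds purine and pyrimidine nucleotides from small precursors. They were chosen by name, as CAD, PPAT, GART, PAICS, PFAS, ADSL, ATIC, IMPDH2, CTPS1 and DHODH, and all 10 were found among the 16376 genes listed with FPKM values. FPKM divides the fragments of a gene by its length and by the depth of the library, so levels can be compared between genes. All 10 passed the filter of a mean of at least 0.1 FPKM that left 12663 genes for testing.

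The cells were LASCPC-01, a human neuroendocrine prostate cancer (NEPC) line. The line carries introduced MYCN and activated AKT1, which both groups share, and the sample labels give its genotype as WT. RNA was taken at day 3 per the labels from 2 samples treated with PBS and 2 samples treated with fluoxetine, a serotonin reuptake inhibitor used as an antidepressant. The titles of the fluoxetine samples read PP, and the labels give no dose. The paper gives a dose and the length of treatment in hours, and that time is shorter than the day in the titles. The labels do not say whether replicates were separate cultures, so p-values measure only the spread between these samples.

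The depth behind the FPKM was inferred from the FPKM and gene lengths, as were all read numbers below. It came to between 32873603 and 34831389 reads per library. Of the neuroendocrine markers, NCAM1 had between 44.3 and 52.0 FPKM, INSM1 between 21.7 and 24.2 FPKM and ENO2 between 2.07 and 3.10 FPKM. SYP reached at most 0.629 FPKM, and CHGA and NEUROD1 stayed under 0.1 FPKM in every library. Markers of other cells were low, with at most 0.256 FPKM for KLK3, 0.193 for KLK2, 0.0318 for PTPRC, 0.00501 for PDGFRB and 0.0624 for COL1A2. COL1A1 had up to 2.75 FPKM. NCAM1 and ENO2 were lower in each fluoxetine library than in either PBS library, and 0 of the 5 neuroendocrine markers tested was called by limma.

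Purine synthesis assembles the ring on a ribose phosphate that PRPP synthetases supply. PPAT commits this precursor to the pathway, GART, PFAS, PAICS, ADSL and ATIC carry it to inosine monophosphate, and IMPDH2 turns that product towards guanine nucleotides. Pyrimidine synthesis starts on CAD, passes through DHODH in the inner mitochondrial membrane and UMPS, and ends with CTP synthetase, CTPS1. Proliferating tumour cells depend on these routes, and several of their genes are known targets of MYC family proteins.

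PPAT and PAICS, which act at the start and in the middle of the purine route, lie head to head on chromosome 4 and so share 1 start region. In GENCODE 29 on GRCh38, PPAT runs from 56393362 to 56435615 on the minus strand and PAICS from 56435741 to 56464579 on the plus strand. The bases between both starts are shown because they lie upstream of both genes at once. They are given on the plus strand from RefSeq GRCh38.p14, chr4:56435616-56435740, with each GC box (GGGCGG, searched on both strands) in capitals.
PPAT and PAICS gap: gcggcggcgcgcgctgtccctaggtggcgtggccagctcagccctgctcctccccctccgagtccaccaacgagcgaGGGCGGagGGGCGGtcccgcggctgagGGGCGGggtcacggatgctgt
The gap is 125 bases long with a GC content of 76.0%, and it holds 3 GC boxes.

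RefSeq start windows, from 250 bases before to 50 bases after each start, were found for 8 of the 10 enzymes, in 13 windows. ADSL and IMPDH2 were not matched. The E-box CACGTG, the hexamer to which MYC and MAX proteins bind, was in 4 of the 13 windows, 1 each of ATIC, PPAT, PAICS and DHODH, and in 7.26% of all 35116 windows. CACGTG reads the same on both strands, and the stretches shown hold none of the other motifs searched. The stretches are printed on the plus strand of GRCh38.p14 with the E-box in capitals, because these are the members whose start windows hold it.
PPAT and PAICS, chr4:56435780-56435809: ctgtatttgctgCACGTGgaaatctccgtt
ATIC, chr2:215312001-215312030: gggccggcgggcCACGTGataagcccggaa
ATIC, chr2:215312076-215312105: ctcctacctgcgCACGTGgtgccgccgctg
DHODH, chr16:72008573-72008602: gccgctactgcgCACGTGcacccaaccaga
PPAT and PAICS share 1 such site, which begins 182 bases before the RefSeq start of PPAT and 40 bases after a RefSeq start of PAICS. The 2 sites of ATIC begin 46 bases before and 29 bases after its start, and the DHODH site begins 159 bases before its start. CCAAT on either strand was in 5 of the 13 windows, all of them of CAD, DHODH or GART, and in 34.6% of all windows. GGGCGG on either strand was in 9 of the 13 windows, with at least 1 window for each of the 8 enzymes, and in 45.0% of all windows. A match describes the letters alone and says nothing of binding.

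The enzymes were measured well above the filter in every library. They spanned from 6.66 FPKM for DHODH to 356.4 FPKM for IMPDH2 as means of the 4 libraries, which put DHODH at percentile 58.0 and IMPDH2 at percentile 99.3 of the listed genes. Summed over the enzymes, PBS libraries held 743.8 and 735.0 FPKM, and fluoxetine libraries held 766.1 and 746.7 FPKM. Of all reads, they took between 0.226% and 0.231% in each library.

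**Figure D1:**
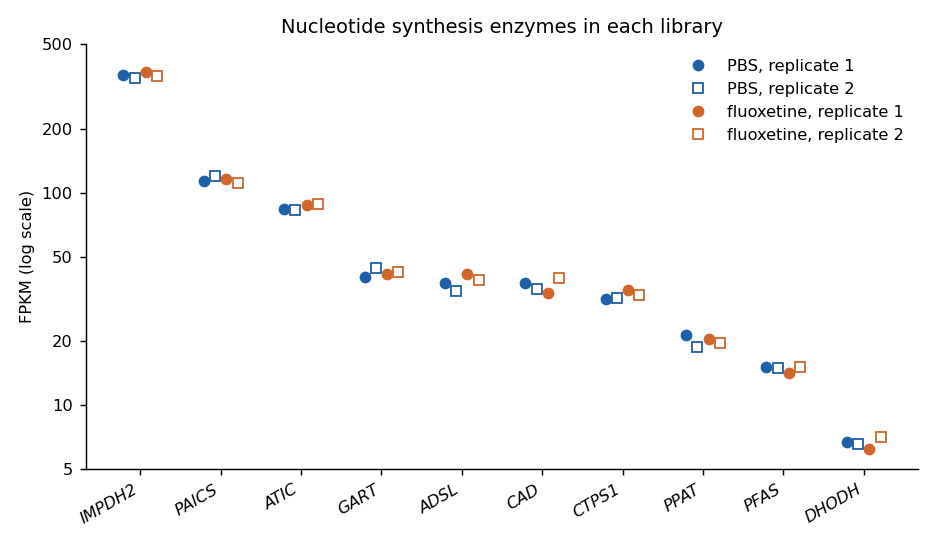
FPKM of the 10 enzymes on a log axis, ordered by their mean, with 1 point for each of the 4 libraries (blue for PBS, orange for fluoxetine, circles for replicate 1 and squares for replicate 2). The 4 points of each gene lie close together from IMPDH2 near 356.4 FPKM down to DHODH near 6.66 FPKM.

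In order of mean level, IMPDH2 was followed by PAICS, ATIC, GART, ADSL, CAD, CTPS1, PPAT, PFAS and DHODH. IMPDH2 stood 3.10-fold above PAICS, and ATIC stood 2.04-fold above GART, in each case with no overlap between the 4 libraries of one gene and the 4 of the other. The 4 genes GART, ADSL, CAD and CTPS1 had means between 32.9 and 41.9 FPKM, and each neighbour in this part of the order overlapped with the next. All other neighbours were apart in every library. The order was therefore the same in all 4 libraries for 6 of the 10 genes and was mixed among the middle 4.

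In the purine route, PPAT had 21.3 and 18.8 FPKM with PBS and 20.6 and 19.6 FPKM with fluoxetine. The fluoxetine values lay between the PBS values. Its log2 fold change, fluoxetine minus PBS on the log2(FPKM + 0.1) scale, was 0.0046 with a 95% interval from -0.18 to 0.19 (adjusted p = 0.993 from limma). PPAT is the enzyme that commits phosphoribosyl pyrophosphate to purine synthesis.

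GART, a single protein that carries out several steps of the ring assembly, had 40.0 and 44.0 FPKM with PBS and 41.4 and 42.4 FPKM with fluoxetine. Again the fluoxetine libraries lay between the PBS libraries, with a log2 fold change of -0.0022 (95% interval -0.17 to 0.16). GART shares 275 exon bases with SON on the opposite strand in GENCODE 29, and whether the counting used strand is not given in the sources used here.

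PFAS, the amidotransferase of the middle of the route, had 15.2 and 14.9 FPKM with PBS and 14.1 and 15.1 FPKM with fluoxetine. The groups overlapped, and the log2 fold change was -0.044 (95% interval -0.22 to 0.13).

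PAICS, which adds a carboxyl group and then aspartate to the growing ring, had 113.8 and 119.4 FPKM with PBS and 116.3 and 110.7 FPKM with fluoxetine. Its log2 fold change was -0.039 (95% interval -0.20 to 0.12), and the groups overlapped. GENCODE 29 lists 7 loci named as PAICS pseudogenes and 2 named as PPAT pseudogenes, so part of the fragments of these genes may have been placed ambiguously.

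Although PPAT and PAICS share the start region printed above, their levels differed. The ratio of PAICS to PPAT FPKM was 5.33 and 6.36 in the PBS libraries and 5.64 and 5.65 in the fluoxetine libraries. The fluoxetine ratios lay between the PBS ratios.

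ADSL, the lyase that acts once in inosine monophosphate synthesis and once on the way to AMP, had 37.8 and 34.3 FPKM with PBS and 41.4 and 38.7 FPKM with fluoxetine. Both fluoxetine libraries were above both PBS libraries. ADSL had the largest log2 fold change of the 10 enzymes, though not the largest difference in FPKM, with means of 36.0 ± 2.45 FPKM (SD, n = 2) and 40.0 ± 1.95 FPKM (SD, n = 2), but the log2 fold change of 0.15 (standard error 0.08, 95% interval -0.019 to 0.32) did not pass the test (adjusted p = 0.604 from limma). ADSL shares 1344 exon bases with the protein-coding locus AL022238.4 on the same strand, so its FPKM depends on how shared fragments were counted.

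ATIC, which closes the purine ring, had 83.3 and 82.7 FPKM with PBS and 87.9 and 88.0 FPKM with fluoxetine. The replicates were closer to each other than for any other enzyme, and the groups did not overlap. The log2 fold change of 0.083 (95% interval -0.067 to 0.23) had an adjusted p of 0.719 from limma.

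IMPDH2, the rate-limiting enzyme of guanine nucleotide synthesis, had 356.5 and 347.0 FPKM with PBS and 369.6 and 352.4 FPKM with fluoxetine. The groups overlapped, with a log2 fold change of 0.037 (95% interval -0.13 to 0.21).

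In the pyrimidine route, CAD, the large protein that joins the opening steps, had 37.5 and 35.2 FPKM with PBS and 33.6 and 39.9 FPKM with fluoxetine. The fluoxetine libraries held both the lowest and the highest value. Their gap of 18.6% was the widest between replicates for any of the enzymes, and the log2 fold change was 0.012 (95% interval -0.18 to 0.20).

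DHODH, which passes electrons from dihydroorotate to the respiratory chain, had 6.75 and 6.57 FPKM with PBS and 6.21 and 7.11 FPKM with fluoxetine. As for CAD, the PBS values lay between the fluoxetine values, and the log2 fold change was -0.0023 (95% interval -0.23 to 0.22). The ratio of CAD to DHODH stayed between 5.36 and 5.61 in the 4 libraries.

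CTPS1, which makes CTP from UTP, had 31.7 and 32.1 FPKM with PBS and 35.0 and 32.9 FPKM with fluoxetine. Both fluoxetine libraries were above both PBS libraries, with a log2 fold change of 0.091 (95% interval -0.069 to 0.25, adjusted p = 0.712 from limma).

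Of the 10 enzymes, 0 had an adjusted p under 0.05 from limma and 0 had an unadjusted p under 0.05, where 0.237% of all genes tested were called after adjustment, 0.213% lower and 0.0237% higher with fluoxetine, and 1078 of 12663 had an unadjusted p under 0.05. With limma voom on reads recovered from the FPKM, 0 were called as well. The log2 fold changes ran from -0.044 to 0.15 with a median of 0.0082, beside a median of -0.021 over all genes tested. The median absolute log2 fold change was 0.038 for the enzymes, 0.098 for all genes tested and 0.074 for the 6758 genes between DHODH and IMPDH2 in level. For 7 of the 10 enzymes the log2 fold change was under 0.05 in size. A difference that is not called does not show that levels were equal, and taken gene by gene, without adjustment for their number, the 95% intervals reached down to -0.23 for DHODH and up to 0.32 for ADSL. The smallest change called among the 12 called genes with a mean of at least 5 FPKM was 0.45 in size. In RNA of whole cultures, fewer cells of a kind and less RNA per cell cannot be told apart.

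**Figure D2:**
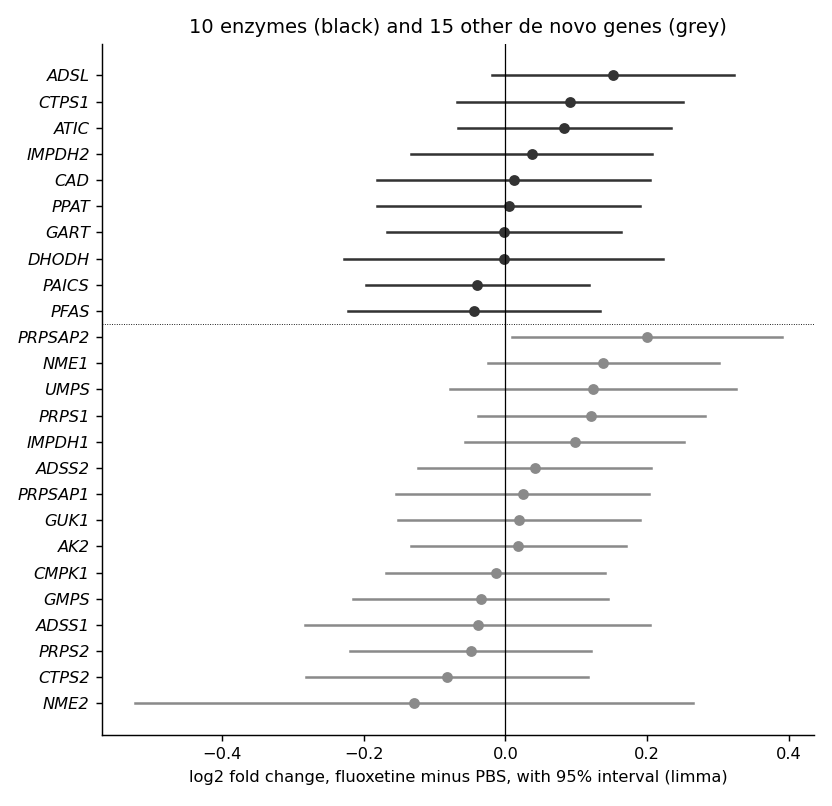
Log2 fold change from limma (points, fluoxetine minus PBS on log2(FPKM + 0.1)) with its unadjusted 95% interval (lines) for the 10 enzymes in black and 15 other genes of de novo synthesis in grey. All 10 black intervals include 0 and lie between -0.23 and 0.32. Of the grey intervals, that of PRPSAP2, from 0.0088 to 0.39, lies above 0.

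For 3 enzymes, ADSL, ATIC and CTPS1, both fluoxetine libraries were above both PBS libraries, and for 0 they were below. Over all genes tested, the shares were 16.7% above and 24.8% below. This split moved with the scaling, as did that of all genes. TPM lowered nearly all genes alike, the median log2 fold change of all genes tested going from -0.021 to -0.070, and then 1 enzyme (ADSL) was above and 3 (PAICS, PFAS and IMPDH2) were below, beside 10.8% and 32.7% of all genes tested. With quantile normalization, 2 (ADSL and CTPS1) were above and 1 (PAICS) below, beside 19.3% and 19.8%. For any 1 gene, the smallest p that an exact permutation test over 2 against 2 libraries can reach is 0.33.

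Most replicates differed by more than counting error. The enzymes had between 642 and 22167 reads in a library. Of the 20 gaps between replicates, 13 were more than 2 times the standard deviation that counting error gives, a limit that covers counting error only. CAD, with 8652 and 10265 reads in the fluoxetine libraries, had a gap of 18.6% where the counting standard deviation was 1.46%.

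The libraries also differed in how FPKM moved with gene length. Each gene was centred on its mean of the 4 libraries, and these centred values were correlated with log2 gene length. Pearson's r across genes was -0.282 for fluoxetine replicate 1, 0.187 for PBS replicate 2, 0.0551 for PBS replicate 1 and 0.0456 for fluoxetine replicate 2. Genes share the library and are not independent replicates. Both long genes of the set, CAD with 7391 bases and PFAS with 5884 bases, were lowest in fluoxetine replicate 1, as was DHODH with 2971 bases. ADSL, CTPS1 and IMPDH2, with 4015, 4080 and 1723 bases, were highest there. With the length trend removed in each library, the log2 fold change was 0.0079 for PFAS and -0.012 for IMPDH2, each with the opposite sign. Both fluoxetine libraries were then above both PBS libraries for ADSL, ATIC and CTPS1, and below them for IMPDH2. Over all genes tested with the length trend removed, the shares were 19.5% above and 20.1% below.

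**Figure D3:**
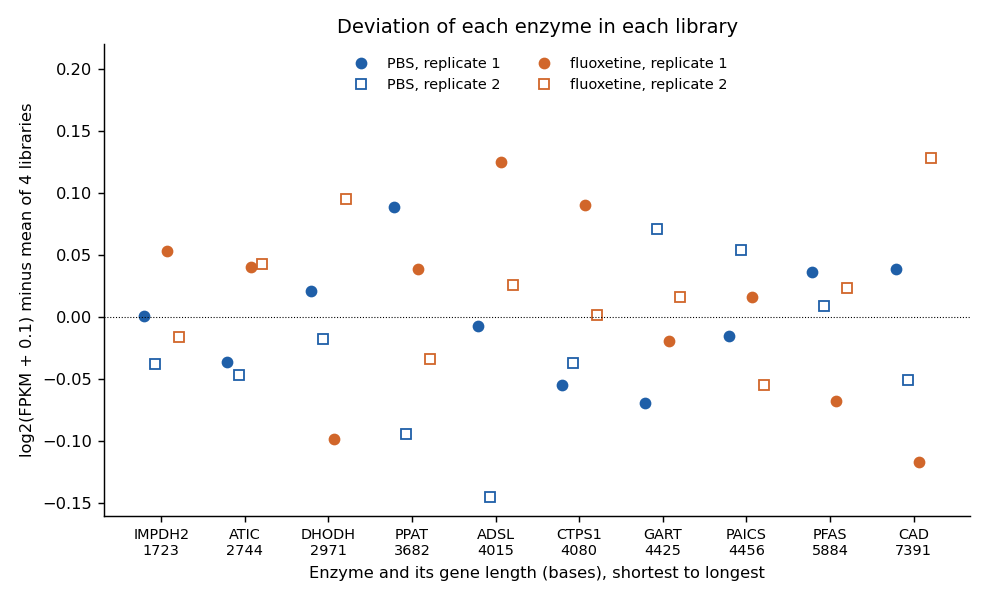
Deviation of log2(FPKM + 0.1) from the mean of the 4 libraries for each enzyme, ordered by gene length from IMPDH2 (1723 bases) to CAD (7391 bases), with 1 point per library. Fluoxetine replicate 1 is the lowest point for CAD, PFAS and DHODH and the highest for ADSL, IMPDH2 and CTPS1.

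The other genes of de novo synthesis were examined as a wider list of 15 genes, all tested. Again 0 were called, with a median log2 fold change of 0.019 and values from -0.13 to 0.20. PRPSAP2, a regulatory partner of PRPP synthetase, had the highest value. It had 16.8 and 14.8 FPKM with PBS and 18.7 and 17.6 FPKM with fluoxetine (adjusted p = 0.557 from limma), and the groups did not overlap. NME2, a nucleoside diphosphate kinase, had the lowest value, with 2.85 and 1.89 FPKM against 2.03 and 2.20 FPKM. NME1 and NME2 both share exons with the readthrough locus NME1-NME2, so their FPKM are uncertain.

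UMPS, which completes UMP after DHODH, had 7.17 and 7.10 FPKM with PBS and 7.66 and 7.91 FPKM with fluoxetine. Its log2 fold change was 0.12 (95% interval -0.079 to 0.33). UMPS was thus near DHODH in level, and the ratio of CAD to UMPS was between 4.39 and 5.23. GMPS, which makes GMP after IMPDH, had between 15.1 and 16.6 FPKM in the 4 libraries, with overlapping groups.

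Several steps have paralogous enzymes, and in each pair the same gene was the higher in all 4 libraries. IMPDH1 had 134.0 and 129.8 FPKM with PBS and 139.5 and 142.9 FPKM with fluoxetine, so IMPDH2 was between 2.47-fold and 2.67-fold higher. Its ratio to IMPDH1 was 2.66 and 2.67 with PBS and 2.65 and 2.47 with fluoxetine, a narrow separation. CTPS2 had 8.15 and 7.95 FPKM with PBS and 7.56 and 7.64 FPKM with fluoxetine. The ratio of CTPS1 to CTPS2 was 3.88 and 4.03 with PBS and 4.63 and 4.31 with fluoxetine, which did not overlap. The ratio of PRPS1 to PRPS2, the PRPP synthetases, was 1.35 and 1.29 with PBS and 1.48 and 1.49 with fluoxetine and did not overlap either. ADSS2 exceeded ADSS1, the adenylosuccinate synthetases, by between 4.90-fold and 5.75-fold, with overlapping groups. None of the genes of these pairs was called by limma, and the ratios were not tested. Groups that do not overlap are common with 2 libraries each. Among single genes tested, 16.7% were above in both fluoxetine libraries and 24.8% below.

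Deoxynucleotide supply, the conversion of ribonucleotides to the precursors of DNA, was covered by 9 genes, and 0 were called. Their median log2 fold change was 0.028. DTYMK, thymidylate kinase, had the highest value of the list, with 45.6 and 36.9 FPKM in PBS and 48.9 and 49.3 FPKM in fluoxetine. Its log2 fold change of 0.26 had an unadjusted 95% interval from 0.057 to 0.46 and was not called (adjusted p = 0.514 from limma). The PBS replicates of DTYMK were farther apart than the PBS replicate 1 was from fluoxetine. RRM2, the S phase subunit of ribonucleotide reductase, had 97.7 and 97.9 FPKM with PBS and 95.2 and 93.3 FPKM with fluoxetine.

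The folate and serine genes, which supply carbon units to the purine ring and to thymidylate, numbered 14, of which 13 were tested and 0 called. ALDH1L2 was listed at 0 in 3 libraries. The median log2 fold change was 0.026. AMT, of the glycine cleavage system, had the lowest value at -0.40 with overlapping groups. SHMT2, the mitochondrial serine hydroxymethyltransferase, had 221.1 and 222.1 FPKM with PBS and 202.6 and 207.7 FPKM with fluoxetine. The difference on the log2 scale was -0.11 (adjusted p = 0.648 from limma).

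Among 18 genes of salvage and breakdown, all tested, 1 was called. CDA, cytidine deaminase, which turns cytidine and deoxycytidine into uridine forms and also inactivates cytosine nucleoside drugs, fell with fluoxetine. CDA had 2.37 and 2.63 FPKM with PBS and 1.17 FPKM in each fluoxetine library, from 63 and 74 reads against 33 and 33 reads. The groups were far apart, with means of 2.50 ± 0.186 FPKM (SD, n = 2) and 1.17 ± 0.000587 FPKM (SD, n = 2), a 2.13-fold fall. Both fluoxetine libraries held 33 reads, so their small SD does not measure counting error. Its log2 fold change was -1.03 (standard error 0.15, 95% interval -1.37 to -0.69, adjusted p = 0.0177 from limma), where 0.213% of all genes tested were called lower. GENCODE 29 places CDA on chromosome 1, from 20588948 to 20618908 on GRCh38.

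The call of CDA rested on the fit. Its log2 fold change lay between -1.14 and -0.69 under the 16 alternatives, chosen for CDA after its value was seen, but the adjusted p ranged from 0.00347 to 0.610. It was above 0.05 with quantile normalization (0.0548), without the variance trend (0.165), with voom on the recovered reads (0.385), without the filter on low values (0.610), and when any 1 library was left out. These values were 0.233 without PBS replicate 1, 0.573 without PBS replicate 2, 0.103 without fluoxetine replicate 1 and 0.112 without fluoxetine replicate 2.

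The remaining salvage genes were not called, and the median of the list was 0.062. ADK, adenosine kinase, had the highest value among those with a mean of at least 1 FPKM, at 0.13, with 16.1 and 14.7 FPKM with PBS and 17.7 and 16.1 FPKM with fluoxetine. UPP1, uridine phosphorylase, was higher still at 0.45 but had only between 0.431 and 0.717 FPKM. Of the kinases that return pyrimidine nucleosides to the pool, UCK1 had 17.0 FPKM in both PBS libraries and 18.7 FPKM in both fluoxetine libraries, and DCK had 16.4 and 15.7 FPKM against 15.3 and 14.9 FPKM. UPP1, UCK1 and DCK were named after their values were seen.

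**Figure D4:**
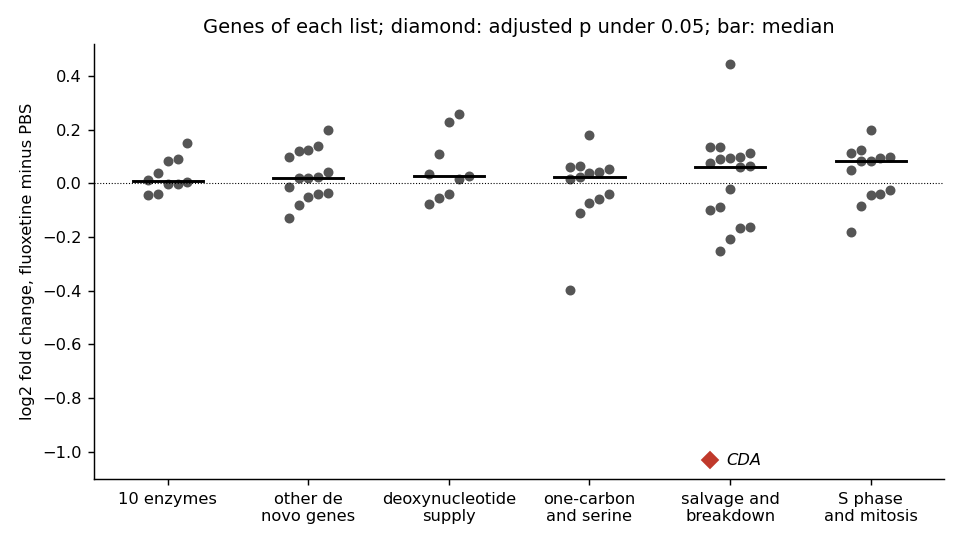
Log2 fold change from limma for the genes of each list (points), with list medians as bars and genes with an adjusted p under 0.05 as diamonds. The 10 enzymes lie between -0.044 and 0.15, and CDA at -1.03 is the 1 diamond.

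MYCN, introduced into this line, had 369.7 and 386.5 FPKM with PBS and 323.1 and 363.6 FPKM with fluoxetine. Reads from an introduced and from the native gene cannot be told apart here. The fluoxetine values were the lower pair, and the log2 fold change of -0.14 (95% interval -0.33 to 0.04) did not pass the test (adjusted p = 0.624 from limma). MYC had at most 0.263 FPKM, and its log2 fold change of -0.54 had an adjusted p of 0.667. None of 6 regulators was called, a list of MYC, MYCN, MYCL, MAX, MLX and the amino acid response factor ATF4.

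Of 13 genes of S phase and mitosis, 0 were called. Their median log2 fold change was 0.083, with values from -0.18 to 0.20, so the median of the enzymes lay below that of the cell cycle genes and above that of all genes tested. For 6 of these 13 genes both fluoxetine libraries were above both PBS libraries, and for 1 they were below, or 46.2% and 7.69%, beside 16.7% and 24.8% of all genes tested. The part of MYCN or of the cell cycle in the values of the enzymes was not tested.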

How the data were processed

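RNA of LASCPC-01 cells was sequenced from 2 PBS and 2 fluoxetine samples, grouped by their treatment labels. The authors deposited FPKM for 16376 genes, and their processing notes name fastp, HISAT2, HTSeq and GRCh38 without versions. The annotation and the gene length used are not given in the sources used here, and the lengths implied by the FPKM differ from GENCODE 29 exon lengths. The labels name a stranded TruSeq kit and the paper a VAHTS kit.

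The members and lists were chosen with earlier results of these data known. FPKM are not read numbers, so limma 3.58.1 in R 4.3.3 (lmFit, eBayes with a variance trend) was run on log2(FPKM + 0.1). The fit covered the 12663 genes whose mean reached 0.1 FPKM, and p-values were adjusted over all of them by Benjamini-Hochberg. Intervals are unadjusted. The count test named in the paper needs read numbers and was not run, also not on the recovered reads.

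Reads were solved from the FPKM as the smallest whole numbers, within 0.004, whose ratios matched those between libraries. The depth was the value shared by 50 genes with GENCODE 29 lengths. This solved 99.5% of the 16080 genes above 0. Where a multiple gave a gene length of whole bases, the smallest such multiple was used. True numbers can be multiples of these, and some solved numbers may be too high. For ATF4 the implied length of 7713 bases exceeded its GENCODE 29 span, from 39519695 to 39522685.

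Named genes were the 10 enzymes, their paralogs and remaining pathway enzymes, called genes and the lowest and highest of each list of nucleotide genes with a mean of at least 1 FPKM, MYCN, MYC and the cell line markers. Some of these genes are not reported here. The read recovery and the main limma fit were tested on simulated data, and the other steps were not. Alternatives tried were a pseudocount of 1 or 0.01, dropping the filter, a filter at 1 FPKM, TPM, quantile normalization, median centring, no trend, robust moderation, a replicate block, length trend removal (lowess, span 0.3), voom on the recovered reads (genes with 10 reads or more), and leaving out each library. Python 3.11.15 with numpy 2.4.6, pandas 2.3.3 and matplotlib 3.10.9 was used for the rest.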

Additional observations from a re-analysis of the deposited data

How the results depend on the processing

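Under the 16 alternatives, 0 of the 10 enzymes was called in any, with a lowest adjusted p of 0.434, and the median of the enzymes stayed between -0.0395 and 0.0569. PAICS, ADSL, ATIC and CTPS1 kept their sign throughout. The other signs turned at values near 0. TPM and median centring shift nearly all genes alike, to a median of -0.0704 and 0.00494 from -0.0214 over all genes tested, so the turns under them follow from that shift. With TPM these were CAD (-0.036), PPAT (-0.043) and IMPDH2 (-0.011), and with quantile normalization CAD (-0.0072), IMPDH2 (-0.0068) and DHODH (0.038). With median centring they were GART (0.024) and DHODH (0.024), and with the length trend removed GART (0.027), PFAS (0.0079) and IMPDH2 (-0.012). With 1 library left out, the values ranged from -0.11 to 0.13 for CAD, -0.087 to 0.096 for PPAT, -0.072 to 0.067 for GART, -0.09 to 0.0011 for PFAS and -0.099 to 0.094 for DHODH, where a lone library was assumed to vary like the rest.

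The number of genes called over all genes was 30. It was 0 without the filter (1175 with an unadjusted p under 0.05) and 0 without the variance trend (933), 16 with quantile normalization, 51 with voom, and 2 to 12 with 1 library left out, 2 without PBS replicate 1, 3 without PBS replicate 2, 9 without fluoxetine replicate 1 and 12 without fluoxetine replicate 2. A fit with replicate number as block called 64 genes and 0 of the enzymes. The pairing check gave r = 0.0351 between centred values of libraries with the same number, from 2 pairs, and r = 0.101 for genes with a mean of at least 10 FPKM. The labels name nothing else that such libraries share. The cause of these shifts was not tested. CDA had 33 to 74 reads in a library and the enzymes at least 642.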
